A study of Mus musculus with 3 samples.

Results

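The genes described here encode the proteins of the mitochondrial ribosome that carry an *Mrpl* or *Mrps* symbol. They were chosen by symbol, with at least 10 UMIs (unique molecular identifiers, which count captured RNA molecules) over 3 single-cell RNA libraries, and 78 of the 31053 genes in the feature table met the rule. The 78 comprised 49 *Mrpl* and 29 *Mrps* symbols. All lay far above the minimum, and the least counted of them had 1582 UMIs over the 3 libraries. Overlapping exons or near-identical copies leave some values uncertain, as given below.

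The libraries were made from CD4+ T cells of the spleen of C57BL/6 mice that carry floxed alleles of *Ift20*, a gene for a protein of intraflagellar transport. Unstimulated WT cells came from *Ift20* f/f mice without Cre and were kept in DPBS buffer (0 h). Stimulated WT cells came from the same genotype and were cultured for 24 h with anti-CD3 and anti-CD28 antibodies at 1 μg/mL each. Stimulated IFT20-KO cells had the same treatment but came from *Ift20* f/f mice with a *Cd4*-driven Cre, which acts in all cells that pass through *Cd4* expression and so removes the gene before the cells leave the thymus. All cells were enriched for naïve CD4+ cells and sorted as 7AAD-CD3+CD4+ before loading. There was 1 library per condition and none of unstimulated IFT20-KO cells, so values have no replicates and no tests, and 95% intervals cover counting error only. No library held WT cells cultured for 24 h without the antibodies, so time in culture cannot be told apart from stimulation.

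The mitochondrial ribosome, or mitoribosome, translates the few mRNAs of the mitochondrial genome, all of which encode subunits of the respiratory chain and the ATP synthase. Its RNAs are transcribed in the organelle, but every one of its proteins is encoded in the nucleus, made by cytosolic ribosomes and imported. Many of these proteins have a counterpart in the bacterial ribosome, whereas others are found only in mitochondria. Activated T cells are known to enlarge their mitochondria before they divide.

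After barcodes with 200 genes or fewer, or with 15% or more of their UMIs in mitochondrial genes, were left out, 8031 unstimulated WT, 9903 stimulated WT and 13920 IFT20-KO cells remained, with medians of 4627, 12167 and 5014.5 UMIs per cell. Between 114 and 197 barcodes were shared by any pair of libraries, and 2 by all 3. *Ift20* itself was at 64.4, 76.0 and 6.60 counts per 1000000 UMIs (CPM), so the IFT20-KO library was low in its targeted gene. The 6 markers of CD4+ T cells summed to 4275, 3265 and 3403 CPM, the CD8 T cell markers to 28.7, 9.16 and 11.5 CPM and the B cell markers to 3.31, 0.846 and 1.42 CPM, and both platelet markers were at 0 in all 3 libraries. Myeloid markers summed to between 76.4 and 80.4 CPM, nearly all of it *Cst3*, and the NK cell markers summed to 42.2 CPM in the unstimulated library, nearly all of it *Klrd1*, against 1.28 and 1.23 CPM in the others. The part of these cells in the values below was not tested.

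Mitoribosomal protein mRNA made up a larger share of the transcriptome after stimulation. The 78 genes together took 5119 CPM in unstimulated WT cells (95% Poisson interval 5096 to 5142), 10334 CPM in stimulated WT cells (10316 to 10353) and 9822 CPM in stimulated IFT20-KO cells (9803 to 9841), that is 0.512%, 1.03% and 0.982% of all UMIs. The summed ratio of stimulated to unstimulated WT was 2.02, or 1.01 on the log2 scale (1.01 to 1.02). Per cell, which does not correct for the deeper stimulated library, the sums were 23.7, 122 and 75.1 UMIs. In cells with at least 4000 UMIs, the median share of a cell's UMIs in these genes was 0.508% in unstimulated WT cells (10th to 90th percentile 0.376% to 0.659%), 1.03% in stimulated WT cells (0.788% to 1.26%) and 1.01% in IFT20-KO cells (0.775% to 1.23%). The ranges of unstimulated and stimulated cells, taken from the 10th to the 90th percentile, did not overlap, whereas those of the stimulated genotypes nearly coincided. These ranges cover only the cells with at least 4000 UMIs, which were 66.9%, 76.8% and 52.2% of the cells in the same order.

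Stimulation was accompanied by higher levels of almost the whole set. In stimulated WT over unstimulated WT, 77 of the 78 genes were above a ratio of 1, with a median log2 ratio of 1.09 and the middle 50% of the genes between 0.76 and 1.29. Of the 78 genes, 66 (84.6%) were at least 1.5-fold higher, against 28.1% of the 13896 genes with 10 or more UMIs, and 43 (55.1%) were at least 2-fold higher, against 18.7%. None was 1.5-fold lower, against 35.3% of all genes. Among the 8067 genes with at least as many UMIs as the least counted member, a background chosen after seeing the data, these shares were 28.6%, 17.5% and 26.7%. As UMIs per cell, 70.4% of all genes were at least 1.5-fold higher and 9.65% lower. The median of all genes was -0.11, so relative to it the median of the 78 was 1.20. The plot of levels by gene shows how uniformly the stimulated points lie to the right.

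**Figure D1:**
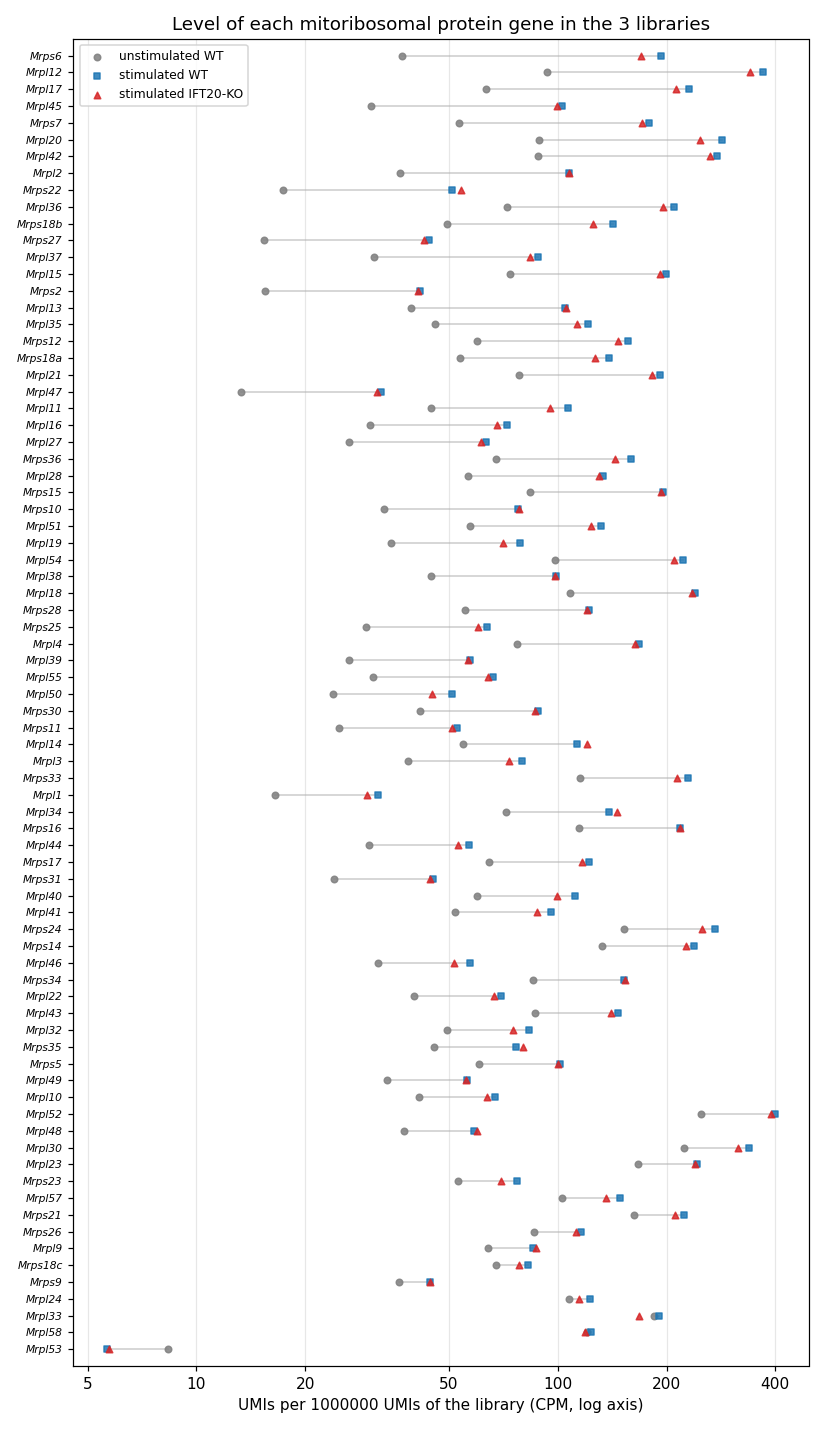
Level of each of the 78 mitoribosomal protein genes (rows, ordered by the ratio of stimulated to unstimulated WT) as CPM on a log axis, with 1 point per library (circles unstimulated WT, squares stimulated WT, triangles stimulated IFT20-KO) and a line between the WT libraries. Stimulated WT points lie right of the unstimulated ones for 77 genes, *Mrpl53* alone lies left at 5.65 against 8.35 CPM, and the IFT20-KO points sit close to the stimulated WT points throughout.

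The 6 genes with the highest ratios came from both subunits. *Mrps6*, which encodes bS6m of the small subunit (GRCm38 chr16:92058270-92112227, + strand), was at 37.0, 194 and 170 CPM in unstimulated WT, in stimulated WT and in IFT20-KO cells, the order kept below, a 5.23-fold difference between the WT libraries (log2 2.39, 2.31 to 2.47). Its exons overlap on the same strand those of *Slc5a3*, a gene for a myo-inositol transporter, which stood at 3.58, 18.7 and 28.1 CPM (log2 2.38 in the WT comparison). Reads from the shared exons cannot be told apart, so the value of *Mrps6* is uncertain.

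*Mrpl12* (chr11:120484613-120489065, + strand), which encodes the bL12m protein of the stalk that receives translation factors on the large subunit, was at 93.2, 369 and 341 CPM (log2 1.99, 1.94 to 2.04). No other annotated gene shares its exons on that strand. *Mrpl17*, for bL17m, was at 63.2, 231 and 213 CPM (log2 1.87, 1.81 to 1.93). *Mrpl45*, whose product mL45 lies at the exit of the peptide tunnel and anchors the ribosome to the inner membrane, was at 30.5, 103 and 99.3 CPM (log2 1.76, 1.67 to 1.85). All 3 belong to the large subunit and all were over 3-fold higher in stimulated WT cells.

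*Mrps7*, for the RNA-binding protein uS7m of the small subunit, was at 53.4, 179 and 171 CPM (log2 1.74, 1.68 to 1.81). *Mrpl20*, for bL20m of the large subunit, was at 88.5, 286 and 248 CPM (log2 1.69, 1.64 to 1.74). In both, as in the genes above, the libraries of stimulated cells lay near each other and far from the unstimulated library.

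The 6 lowest ratios mark the exceptions. *Mrpl53* (chr6:83109040-83109939, + strand), for the mitochondria-specific mL53, was the least counted member, at 8.35 CPM in unstimulated WT (7.44 to 9.33), 5.65 in stimulated WT (5.23 to 6.10) and 5.74 in IFT20-KO cells, and was the single member with a lower level after stimulation (log2 -0.56, -0.76 to -0.36). Its exons overlap those of the predicted gene *Gm42688* on the same strand, which was below 1 CPM in all 3 libraries, so how many of its reads were assigned is uncertain.

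*Mrpl58*, whose product releases peptides from stalled mitoribosomes and is also built into the large subunit, was at 121, 123 and 119 CPM (log2 0.035, -0.014 to 0.084), an interval that spans 0. *Mrpl33*, for the small protein bL33m, was at 185, 191 and 168 CPM (log2 0.047, 0.0077 to 0.086), and *Mrpl24*, for uL24m, at 107, 123 and 114 CPM (log2 0.19, 0.14 to 0.25). *Mrps9*, for uS9m, was at 36.4, 44.4 and 44.2 CPM (log2 0.29, 0.20 to 0.37). These levels were thus within 1.5-fold of each other in all 3 libraries while most of their partners in the same particle were not.

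The paralogues of bacterial S18 differed from each other. *Mrps18c* encodes bS18m, the small subunit's direct counterpart, and was at 67.4, 82.9 and 78.2 CPM (log2 0.30, 0.24 to 0.36). *Mrps18b*, for mS40 of the small subunit, was at 49.3, 143 and 125 CPM (log2 1.53, 1.46 to 1.60). *Mrps18a*, whose product mL66 sits in the large subunit despite its name, was at 53.8, 139 and 127 CPM (log2 1.37, 1.30 to 1.44). The counting interval of the *Mrps18c* ratio did not overlap those of the other two.

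A pair of further symbols do not say where their products belong. *Mrps30*, for mL65 of the large subunit, was at 41.4, 88.2 and 86.6 CPM (log2 1.09, 1.01 to 1.17). *Mrps36*, now known as a component of the 2-oxoglutarate dehydrogenase complex rather than of the ribosome, was at 67.4, 159 and 144 CPM (log2 1.24, 1.18 to 1.30). Its ratio lay within the middle 50% of the 78 genes, so it was not apart from the ribosomal members.

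By role, the groups within the mitoribosome overlapped widely. Their counts stand beside the 84.6% of all 78 members and the 28.1% of all genes that were at least 1.5-fold higher. The median log2 ratio was 0.96 over the 26 genes of the small subunit, of which 21 were at least 1.5-fold higher, and 1.11 over the 51 genes of the large subunit, of which 44 were. The 48 genes with a bacterial counterpart had a median of 1.14 with 41 at least 1.5-fold higher, and the 29 mitochondria-specific genes had a median of 0.91 with 24 at least 1.5-fold higher. The middle 50% ran from 0.83 to 1.39 in the former and from 0.73 to 1.16 in the latter. The 5 mitoribosomal proteins without an *Mrp* symbol were at least 1.5-fold higher in 5 of 5 cases: *Dap3* for mS29 (80.9, 123 and 128 CPM, log2 0.61), *Ptcd3* for mS39 (20.8, 35.9 and 36.6 CPM, log2 0.79), *Aurkaip1* for mS38 (130, 241 and 229 CPM, log2 0.89), *Chchd1* for mS37 (99.0, 194 and 180 CPM, log2 0.97) and *Gadd45gip1* for mL64 (92.3, 203 and 207 CPM, log2 1.14).

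Genes that serve the mitoribosome without being part of it were more divided. Their counts, like those of the lists after them, stand beside the 28.1% of all genes that were at least 1.5-fold higher and the 35.3% that were lower. Of 23 assembly factors, 9 were at least 1.5-fold higher and 1 lower in stimulated WT cells (median log2 0.32). *Fastkd2*, an RNA-binding protein of large subunit assembly, was at 8.86 and 28.0 CPM in the unstimulated and stimulated WT libraries (log2 1.66), and *Mrm1*, which methylates the large ribosomal RNA, at 18.8 and 9.89 CPM (log2 -0.92). Of 16 translation factors, 8 were at least 1.5-fold higher and none lower (median 0.64), with the ribosome recycling factor *Mrrf* at 18.1 and 53.7 CPM (log2 1.57), the elongation factor *Tufm* at 76.3 and 208 CPM (log2 1.45) and the initiation factor *Mtif3* at 24.8 and 19.1 CPM (log2 -0.38).

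The 17 mitochondrial aminoacyl-tRNA synthetases had a median of 0.19, with 5 at least 1.5-fold higher and 1 lower, so the share of them that was higher lay near that of all genes. *Yars2*, which charges the tyrosine tRNA, was at 20.5 and 57.2 CPM (log2 1.48), whereas *Lars2*, which charges the leucine tRNA, was at 787 and 225 CPM (log2 -1.80). In unstimulated WT *Lars2* held 787 of the 1052 CPM of the 17 genes together. Whether all its reads came from its own transcript was not tested. Of 10 genes for mitochondrial transcription and mRNA stability, 3 were at least 1.5-fold higher and 1 lower (median 0.43), among them *Tefm*, the elongation factor of mitochondrial transcription, at 5.47 and 12.5 CPM (log2 1.20) and *Polg*, the catalytic subunit of the mitochondrial DNA polymerase, at 31.3 and 19.2 CPM (log2 -0.70).

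The mRNAs that mitoribosomes translate went the other way in their share of UMIs. Of the 13 protein-coding genes of the mitochondrial genome, 12 were lower in stimulated WT, against 54.0% of all genes. The median log2 ratio was -0.56. At least 1.5-fold lower were 5 of the 13, a share near that of all genes. *mt-Co1*, for the catalytic subunit of cytochrome c oxidase, was at 4907 and 2213 CPM (log2 -1.15), and *mt-Atp8*, of the ATP synthase, was the single gene of the 13 above 0, at 141 and 188 CPM (log2 0.42). As UMIs per cell without scaling for depth, this median turned to 0.79, against 2.44 for the 78 genes. The mitochondrial genes also set the filter on cells, so their levels are bounded by it.

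The 36 nuclear genes of complex I, which is assembled from both genomes, lay between these groups. Their median log2 ratio was 0.61, with 18 at least 1.5-fold higher and 1 lower. *Ndufab1*, the mitochondrial acyl carrier protein, was at 103 and 380 CPM (log2 1.89), and *Ndufa3*, an accessory subunit, at 290 and 139 CPM (log2 -1.06). Of the 83 genes of the cytosolic ribosome, 12 were at least 1.5-fold higher and 19 lower, with a median of -0.052 that turned to 0.12 under median-ratio scaling and to 1.30 as UMIs per cell. The plot of log2 ratios by gene list sets the 2 comparisons side by side.

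**Figure D2:**
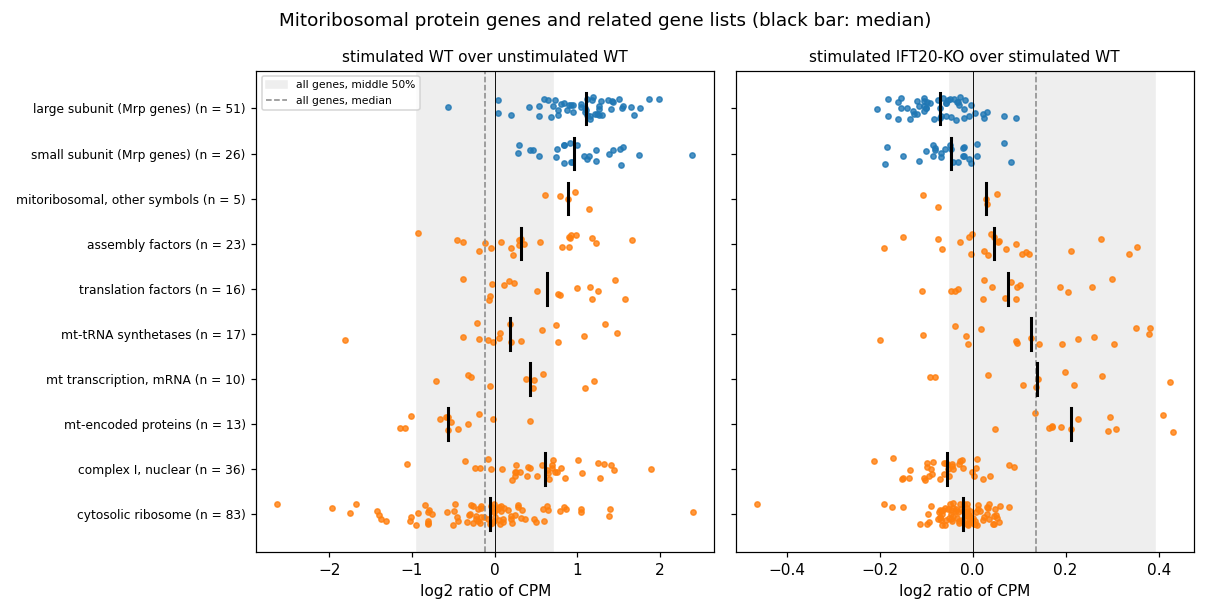
Log2 ratios of CPM for the mitoribosomal protein genes of the large and small subunit (blue) and for related gene lists (orange), 1 point per gene, in stimulated over unstimulated WT (left) and stimulated IFT20-KO over WT (right). Black bars are list medians, the grey band holds the middle 50% of all genes and the dashed line their median (-0.11 and 0.14), and the mitoribosomal genes of both subunits lie to the right of that line on the left panel (50 of 51 of the large and 26 of 26 of the small subunit) and to its left on the right panel (51 of 51 and 26 of 26).

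The promoters of the members were searched for short motifs, in windows from 250 bases before to 50 bases after each RefSeq start (GRCm38.p6). Windows were found for 69 of the 78 genes, 75 windows in all, and those of *Mrpl4*, *Mrpl13*, *Mrpl15*, *Mrpl19*, *Mrpl38*, *Mrpl54*, *Mrps28*, *Mrps34* and *Mrps35* were not analysed here. The letters CCGGAAG, a core of ETS sites, stood on either strand in 34.7% of the members' windows, against 17.5% of windows of genes with 10 or more UMIs and 8.86% of all windows. The letters AAGATGGC, a core of YY1 sites, stood in 16.0%, 4.40% and 2.75% of these. The palindromic NRF1 motif was in 4.0%, 2.09% and 0.971%, the E-box CACGTG, which Myc and related factors bind, in 9.33%, 9.97% and 7.15%, CCAAT in 40.0%, 37.8% and 37.4%, and GGGCGG in 52.0%, 60.4% and 35.7%. A match is a description of letters, not evidence of binding.

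The E-box is shown because 4 of the 5 members that hold it were above a log2 ratio of 1.5. The motif was thus picked by the values of the members that hold it. The 5 stretches of 30 bases below, each with the E-box in capitals, are named after the member.
Mrpl20: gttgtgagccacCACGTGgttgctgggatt
Mrpl2: actgccgcccgtCACGTGacccgagcaacc
Mrpl36: cacacgtcatccCACGTGaccttacgccat
Mrpl37: agcaagtttcttCACGTGtggcacttcaga
Mrps18c: gcagccccgggtCACGTGacttccggcccg

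That of *Mrpl20* (chr4:155802833-155802862, + strand) begins its E-box 33 bases before the start and overlaps no annotated gene. That of *Mrpl2* (chr17:46646078-46646107, + strand), 147 bases before, lies in an intron of the predicted gene *Gm26904*. That of *Mrpl36* (chr13:73330954-73330983, + strand), 43 bases before the RefSeq start, lies in an annotated exon of *Mrpl36* itself. Those of *Mrpl37* (chr4:107067011-107067040, - strand) and *Mrps18c* (chr5:100798584-100798613, + strand), 162 and 163 bases before the start, lie in exons of the divergent neighbours *Cyb5rl* and *Helq*. Overlap was checked with annotated genes only, and overlap with dispersed repeats was not checked. The log2 ratios of stimulated to unstimulated WT were 1.69 for *Mrpl20*, 1.55 for *Mrpl2*, 1.54 for *Mrpl36*, 1.51 for *Mrpl37* and 0.30 for *Mrps18c*. Their median was 1.54, against 1.02 for the 64 other members with a window. The motif was picked by these same ratios, so this difference is not a test of it. The E-box stood in 9.33% of the members' windows, near the 9.97% of genes with 10 or more UMIs. *Mrps18c* shows that the letters also stand at a member that differed little. *Mrps6* and *Mrpl12*, the members with the highest ratios, held none.

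The YY1 letters were in the windows of 12 members, all of which were at least 1.5-fold higher in stimulated WT. So were 84.6% of all 78 members and 28.1% of all genes. The median log2 ratio was 1.39 over the 12 against 0.95 for the 57 without. In 8 of the 12 the match lay after the start, and in 6 of these 8 its ATG was an annotated start codon, as in the 3 members below (match in capitals), so the letters there are also coding sequence.
Mrps7: tgacagcggccAAGATGGCtgcccccgcgc
Mrps27: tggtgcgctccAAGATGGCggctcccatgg
Mrps18a: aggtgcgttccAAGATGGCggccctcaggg

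These stand at chr11:115604147-115604176 (+ strand), chr13:99344789-99344818 (+ strand) and chr17:46111004-46111033 (+ strand), with the match beginning at base 19, 15 and 12 of the transcript, and all lie in exons of the named gene. *Mrps27*, for the pentatricopeptide repeat protein mS27, was at 15.4, 44.0 and 42.7 CPM (log2 1.52). For the ETS letters the median log2 ratio was 0.94 over the 26 members that hold them and 1.09 over the 43 that do not. All the motifs, YY1 among them, were compared on the same ratios, so no difference of medians here is a test. The medians were 0.76 over the 3 members with the NRF1 motif and 1.07 over the 66 without, 1.12 over the 27 with CCAAT and 0.94 over the 42 without, and 0.97 over the 34 with GGGCGG and 1.09 over the 35 without.

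The 78 genes lie on 17 chromosomes, and many start close to a gene on the opposite strand. For 25 of them (32.1%) another protein-coding gene on the opposite strand started within 500 bases. The same held for 1786 of 12290 protein-coding genes with 10 or more UMIs (14.5%). Starts here are the outermost GENCODE ends of each gene, not the RefSeq starts of the motif windows, and paired genes may overlap. *Mrpl46* and *Mrps11* form such a pair with each other and had log2 ratios of 0.84 and 1.08. Their starts are 412 bases apart, and the genes overlap between them. Of the other 23, the neighbour had at least 50 UMIs over the WT libraries in 22. Of these 22 neighbours 8 were at least 1.5-fold higher in stimulated WT and 4 lower (median log2 0.16), against 28.1% and 35.3% of all genes. Of their 22 mitoribosomal partners 20 were at least 1.5-fold higher (median 1.19), against 84.6% of all 78 members.

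Examples run in both directions. *Mrpl36* and *Ndufs6*, a gene of complex I, start within 29 bases of each other and had log2 ratios of 1.54 and 1.05. This start of *Mrpl36* is its GENCODE end at chr13:73328513. The RefSeq start used for its E-box is another, just after chr13:73331008. *Mrps7* and *Gga3*, whose product sorts cargo at the Golgi, start 126 bases apart and had ratios of 1.74 and -1.58. *Mrpl49* and *Fau*, whose product is processed to a protein of the cytosolic small subunit, start 59 bases apart and had ratios of 0.73 and -0.80. The examples were chosen after their values were seen.

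In IFT20-KO cells most of the genes were slightly lower than in WT cells after the same stimulation, when all cells were summed. The 2 comparisons share the stimulated WT library, so their values are not independent of each other. In stimulated IFT20-KO over stimulated WT, the median log2 ratio was -0.066, with a range from -0.21 to 0.093, and the summed ratio was 0.950 (log2 -0.073, -0.077 to -0.070). Of the 78 genes 68 were below a ratio of 1 (87.2%), against 31.9% of the 13891 genes with 10 or more UMIs and 34.4% of the 8067 genes counted as well as the members. None was 1.5-fold higher, against 14.0% and 4.08% of these backgrounds, and none 1.5-fold lower, against 3.97% and 0.595%. Under median-ratio scaling, with the members still at 0 and 0, the shares of all genes were 8.48% higher and 5.57% lower, and as UMIs per cell they were 2.77% and 37.5%, where 74 of the 78 members were 1.5-fold lower. The median of all genes was 0.14, so relative to it the median of the members was -0.20, and 78 of 78 were below it. For 51 of the 78 genes the counting interval lay below 0, for 4 above and for 23 it spanned 0. Among the 13891 genes with 10 or more UMIs these counts were 2172, 6104 and 5615, and among the 8067 they were 1910, 4275 and 1882.

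The lowest ratios were those of *Mrpl20* (286 in stimulated WT and 248 CPM in IFT20-KO, log2 -0.21, -0.23 to -0.18), *Mrps6* (194 and 170 CPM, log2 -0.19, -0.22 to -0.16) and *Mrps18b* (143 and 125 CPM, log2 -0.19, -0.22 to -0.15). *Mrpl33* (191 and 168 CPM, log2 -0.18, -0.21 to -0.15), *Mrpl50*, for the mitochondria-specific mL50 (50.9 and 44.8 CPM, log2 -0.18, -0.24 to -0.13), and *Mrpl11*, for uL11m at the base of the stalk (107 and 95.3 CPM, log2 -0.16, -0.20 to -0.12), followed. *Mrpl20* and *Mrps6* were thus among the 6 highest ratios after stimulation and the 6 lowest in IFT20-KO cells.

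At the other end were *Mrpl14*, for uL14m at the interface of the subunits (113 and 121 CPM, log2 0.093, 0.058 to 0.13), *Mrps22*, for the mitochondria-specific mS22 (50.9 and 53.9 CPM, log2 0.082, 0.029 to 0.14), *Mrpl34*, for bL34m (139 and 145 CPM, log2 0.068, 0.036 to 0.10), and *Mrps35*, for mS35 (76.6 and 80.2 CPM, log2 0.068, 0.025 to 0.11). *Mrpl48*, for mL48 (58.7 and 59.9 CPM, log2 0.031), and *Mrpl9*, for bL9m (85.7 and 87.1 CPM, log2 0.024), had intervals that spanned 0. All 4 of the former turned below 0 under median-ratio scaling, which lowers every ratio of this comparison by 0.17. The whole range over the 78 genes was narrow, with a standard deviation of 0.065.

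Medians by role were close. The counts of genes below 0 given here stand beside the 31.9% of all genes that were below 0. The median was -0.047 over the small subunit, with 22 of 26 genes below 0, and -0.070 over the large subunit, with 45 of 51. Of the 5 mitoribosomal proteins without an *Mrp* symbol, 3 were above 0 (*Dap3* at log2 0.052, *Ptcd3* at 0.031 and *Gadd45gip1* at 0.028) and 2 below (*Chchd1* at -0.11 and *Aurkaip1* at -0.074). Nuclear complex I genes had a median of -0.056 with 29 of 36 below 0, and cytosolic ribosomal proteins -0.020 with 58 of 83 below 0. Assembly factors (0.047), translation factors (0.076), mitochondrial tRNA synthetases (0.12) and genes of mitochondrial transcription and mRNA stability (0.14) had medians above 0 that turned to between -0.12 and -0.033 under median-ratio scaling. The mitochondrially encoded genes were above 0 in 13 of 13 (median 0.21, or 0.040 under median-ratio scaling and -0.42 as UMIs per cell), against 9456 of 13891 genes. With cells grouped by total UMIs, however, the median share of UMIs in mitochondrial genes was lower in IFT20-KO than in stimulated WT cells in every group. It was 5.83% against 10.7% from 2000 to 4000 UMIs and 1.06% against 1.30% from 8000 to 16000. The part of the mix of cells in the ratios over all cells was not tested.

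The share of UMIs in mitoribosomal genes varied with how much RNA a cell's library held. In stimulated WT cells it was 5922 CPM in cells under 2000 UMIs and 5672 CPM between 2000 and 4000, and then 8800, 10084, 11047 and 11172 CPM in the groups from 4000, 8000, 16000 and 32000 UMIs upwards. In IFT20-KO cells the same groups held 8222, 7104, 8720, 10168, 10954 and 10964 CPM. In unstimulated cells the share was 3289 CPM under 2000 UMIs, then 5242, 5122 and 5251 CPM, and 6905 CPM in the 14 cells above 16000 UMIs. From 2000 UMIs upwards the share was thus higher in stimulated cells with more UMIs, in both genotypes. It was nearly level between 2000 and 16000 UMIs in unstimulated cells, as the plot of summed CPM by total UMIs shows.

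**Figure D3:**
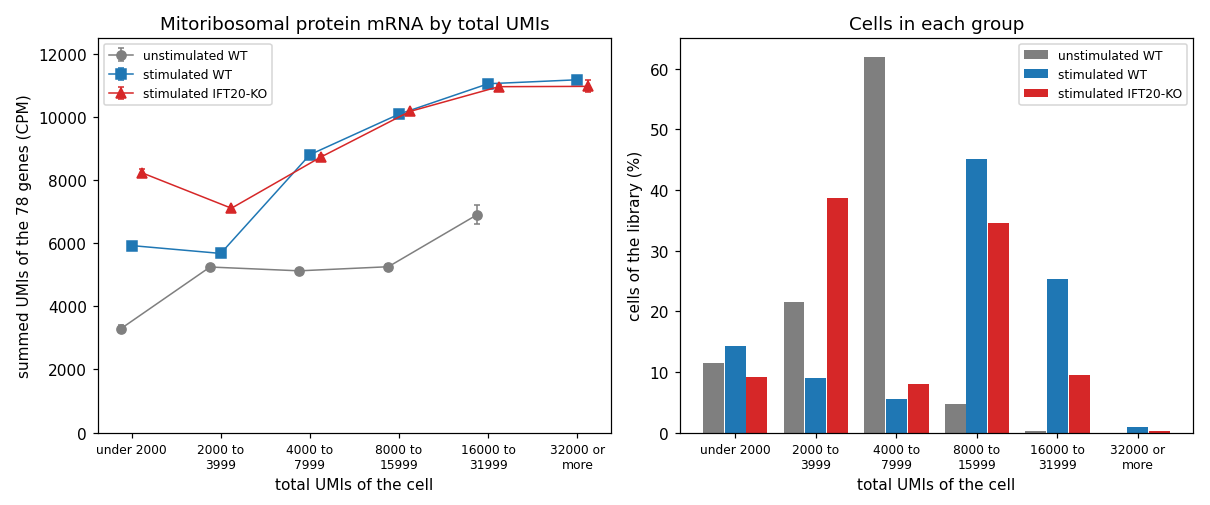
Left, summed UMIs of the 78 mitoribosomal protein genes as CPM in cells grouped by their total UMIs, for the 3 libraries, with exact 95% Poisson intervals as bars. Right, the percentage of each library's cells in each group, in which cells between 2000 and 4000 UMIs make up 38.6% of the IFT20-KO library against 8.94% of the stimulated WT library.

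The libraries differed in how their cells fell into these groups. Cells from 8000 to 32000 UMIs made up 45.1% and 25.3% of stimulated WT in the lower and upper of these groups, and 34.5% and 9.43% of IFT20-KO. The cells under 4000 UMIs also differed in quality, with median mitochondrial shares of 10.0% and 10.7% in the lowest groups of stimulated WT, 4.75% and 5.83% in those of IFT20-KO, and no more than 1.62% in the groups above for either. Their part in the difference between the genotypes was not tested beyond the values that follow.

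At like total UMIs the difference between the genotypes was smaller or turned. The summed log2 ratio of IFT20-KO to WT was -0.013 (-0.033 to 0.0067) from 4000 to 8000 UMIs, 0.012 (0.0066 to 0.017) from 8000 to 16000 and -0.012 (-0.019 to -0.0057) from 16000 to 32000. It was 0.32 (0.30 to 0.35) from 2000 to 4000 UMIs, where 5373 IFT20-KO cells stood against 885 WT cells, and 0.47 (0.44 to 0.51) below 2000 UMIs. The value of -0.073 over all cells therefore lay below that of all 5 groups compared. The group below 2000 UMIs did not span like totals, since before the filter the lowest barcode held 709 UMIs in stimulated WT and 1493 in IFT20-KO. Of the 78 genes 40, 37 and 47 were below 0 in the 3 groups from 4000 to 32000 UMIs, and 6 and 5 in the lower ones (from 2000 to 4000, and below 2000). Of all genes with 10 or more UMIs in the libraries compared, 30.9%, 39.4% and 44.7% were below 0 in the 3 upper groups and 52.1% and 60.9% in the lower ones. Relative to the median of all genes, 64, 57 and 61 were lower in the 3 upper groups. In all cells with at least 4000 UMIs together, 57 of 78 were below 0, against 39.5% of 13570 genes, and 72 below the median of all genes. The plot of ratios within groups of total UMIs shows each gene.

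**Figure D4:**
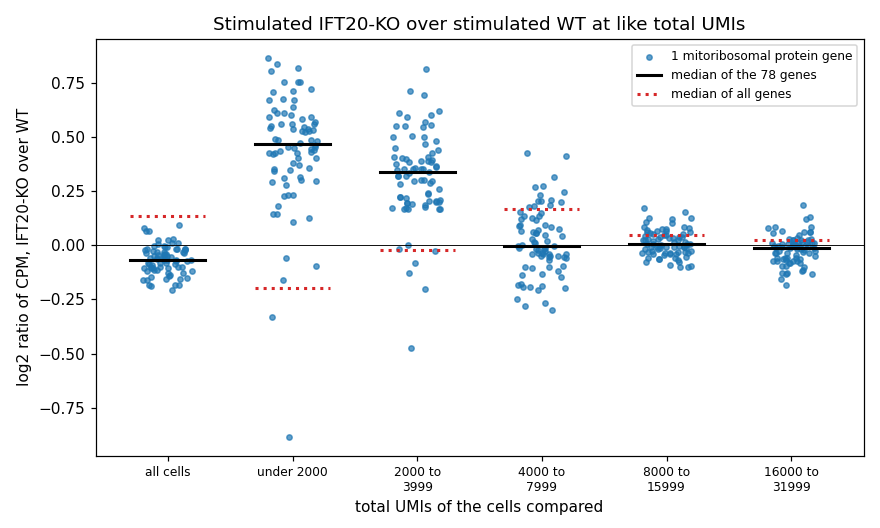
Log2 ratio of CPM of stimulated IFT20-KO over stimulated WT for each of the 78 mitoribosomal protein genes, over all cells and within groups of cells of like total UMIs. Black bars are medians of the 78 genes and red dotted bars medians of all genes, and the members lie around 0 in the 3 groups from 4000 to 32000 UMIs and mostly above 0 in cells with fewer.

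The difference after stimulation was large in most of these groups but not in all. In stimulated over unstimulated WT the summed log2 ratio was 0.85 (0.79 to 0.90) under 2000 UMIs, 0.78 (0.76 to 0.80) from 4000 to 8000 and 0.94 (0.92 to 0.96) from 8000 to 16000, with 50, 55 and 61 of 78 genes at least 1.5-fold higher, against 25.6%, 23.7% and 23.7% of all genes. It was 0.11 (0.084 to 0.14) from 2000 to 4000 UMIs, where 21 of the 78 genes were at least 1.5-fold higher and 7 lower, against 46.9% and 20.4% of all genes, and 53 lay below the median of all genes, which was 0.48. That group held 885 stimulated WT cells, whose median mitochondrial share was 10.7% against 2.29% in the unstimulated cells of the same group. Under 2000 UMIs the totals were also not alike, with lowest barcodes before the filter of 500 UMIs in unstimulated and 709 in stimulated WT. With each cell thinned to 1500 UMIs, which left out 825, 564 and 16 shallower cells, a cell held on average 7.71, 14.1 and 13.1 UMIs of these genes and a median of 7, 12 and 11 of the 78 were detected. Without thinning the medians were 19, 54 and 30 genes.

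Cells in cycle held slightly more. Among stimulated WT cells with at least 4000 UMIs, the 543 with 3 or more UMIs of the cell cycle genes *Mki67*, *Top2a*, *Birc5* and *Cenpf* had 10897 CPM (10835 to 10959) in mitoribosomal genes, against 10470 CPM (10450 to 10490) in the other 7061. In IFT20-KO cells the values were 10671 and 10247 CPM. The cells with cell cycle UMIs also held more UMIs in all, with medians of 19339 against 13646 in WT and 16243 against 11449 in IFT20-KO. The part of these totals in the difference was not tested.

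Some values are uncertain from sequence alone. *Mrps24* and *Mrps34* overlap exons of *Urgcp* and *Nme3* on the same strand, as *Mrps6* and *Mrpl53* do those of other genes. For 7 members, *Mrpl22*, *Mrpl23*, *Mrpl27*, *Mrpl42*, *Mrpl53*, *Mrps10* and *Mrps21*, a transcript of another annotated gene was at least 95% identical over at least 50% of the member's length, and reads from such copies could be split or lost. Overlaps and copies were searched for the members only. The assignment of reads to genes of the other lists, such as *Lars2*, was not checked.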

How the data were processed

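Sorted CD4+ T cells of mouse spleen were measured in 1 single-cell library per condition. The values the authors deposited are raw UMI counts for each gene in each called barcode. Per the file headers they were made with Cell Ranger 3.1.0, and the submitters' processing notes name mm10. The labels name a 5′ kit and the study's methods a 3′ kit, so levels are compared between libraries and not between genes. The members and lists were chosen with earlier results of these data known.

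The study's filter on barcodes (over 200 genes, mitochondrial genes below 15% of UMIs) removed 222, 417 and 12. Kept cells held 37133949, 116979076 and 106435143 UMIs. No doublets were called or removed. UMIs were summed per library and expressed as CPM. Intervals at 95% are exact Poisson for CPM and exact binomial for ratios, and cover counting error only. A median over genes is the middle of their log2 ratios. A gene counted as higher or lower past 1.5-fold. Named were the 6 highest and 6 lowest ratios of each comparison among members with 50 or more UMIs, the S18 paralogues, *Mrpl12*, *Mrps30*, *Mrps36*, *Mrpl58*, the mitoribosomal proteins without an *Mrp* symbol, at most 6 genes of each other list, and *Ift20*.

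Alternatives were median-ratio scaling, UMIs per cell, the mean of per-cell fractions, all barcodes, more than 1000 genes with under 10% mitochondrial UMIs, cells with at least 4000 UMIs, cells thinned to 1500 UMIs, and minimums of 1 or 200 UMIs per gene. The background of well counted genes, ratios relative to the median of all genes, and groups of like total UMIs were added after seeing the data. Gene positions, overlaps and copies came from GENCODE M21 (blastn 2.17.0+), promoters from RefSeq. The intervals were tested before use on simulated Poisson counts. These counts hold no variation between cells or libraries, so only counting error was checked. Python 3.11.15, numpy 2.4.6, scipy 1.17.1, pandas 2.3.3 and matplotlib 3.10.9 were used.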

Additional observations from a re-analysis of the deposited data

How the results depend on the processing

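Over stimulated and unstimulated WT, the median log2 ratio of the 78 genes (1.09) was 1.26 under median-ratio scaling, 2.44 as UMIs per cell, 0.98 as the mean of per-cell fractions and 0.95 in cells thinned to 1500 UMIs. The summed log2 ratio (1.01) was 1.18, 2.37, 0.91 and 0.87 in the same order, and 1.03 in cells with at least 4000 UMIs. One gene, against 0, was 1.5-fold lower under a stricter filter (over 1000 genes, mitochondrial UMIs below 10%), and also 1 in cells with at least 4000 UMIs and 1 after thinning. *Mrpl53* turned to 0.79 as UMIs per cell and *Mrpl33* to -0.032 as the mean of per-cell fractions.

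For IFT20-KO over WT, the median (-0.066) was -0.24 under median-ratio scaling, -0.69 as UMIs per cell and -0.10 after thinning. The summed log2 ratio (-0.073) was -0.24 and -0.70 under the first 2 of these, -0.084 as the mean of per-cell fractions, -0.069 with all barcodes, -0.086 under the stricter filter, -0.031 in cells with at least 4000 UMIs and -0.11 after thinning. As UMIs per cell 74 genes were 1.5-fold lower. Under median-ratio scaling and as UMIs per cell 0 of the 78 genes were above 0. Of all genes, 54.2% were below 0 under the former and 87.8% under the latter. The named genes whose counting interval had lain above 0 were, under median-ratio scaling, *Dap3* (-0.12), *Gadd45gip1* (-0.14), *Mrpl14* (-0.078), *Mrpl34* (-0.10), *Mrps22* (-0.089) and *Mrps35* (-0.10), and as UMIs per cell -0.58, -0.60, -0.53, -0.56, -0.55 and -0.56 in that order. *Gadd45gip1* turned to -0.0020 as the mean of per-cell fractions and -0.036 after thinning, and *Mrpl34* to -0.039 after thinning.

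These were 17 of 420 recomputed values of 30 named genes, counting only changes of sign of values whose counting interval excluded 0. With those whose interval spanned 0, such as *Ptcd3*, *Mrpl48* and *Mrpl9*, they were 33. The 30 are named members, the mitoribosomal proteins without an *Mrp* symbol and *Ift20*, and leave out the named genes of the other lists. As UMIs per cell, ratios of stimulated over unstimulated WT rise by 1.35. This exceeds the fall given for *Mrm1*, *Mtif3*, *Polg*, *mt-Co1* and *Ndufa3*, but not that for *Lars2*. Median-ratio scaling and UMIs per cell shift every ratio of a comparison by a constant, and the cause of the other moves was not tested. No paired analysis was possible because each condition had 1 library, so there are no pairs of replicates. With 1 library per condition, differences between the libraries' cells, depth and handling cannot be told apart from the condition.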
